A study of Mus musculus with 2 samples.

Results

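Carbonic anhydrases were followed as a gene family by RNA sequencing in mouse cultures that carry the label intestinal stem cells. The members were 10 genes taken by symbol, out of 18944 genes that both expression tables list. They are Car1, Car2, Car3, Car7, Car8 and Car13, whose proteins lie in the cytosol, Car4, Car9 and Car12, whose enzymes sit on the cell membrane, and Car5b, whose enzyme is mitochondrial. The series holds 2 libraries, 1 for each genotype. Both cultures carried Lgr5GFP-CreERT2, which drives a fluorescent reporter and a tamoxifen-inducible Cre recombinase from the stem cell gene Lgr5, and both were labelled with an age of 2 months. One is labelled wild type (WT). The other is labelled Stat6 KO, in which the gene of the transcription factor STAT6, activated by interleukins 4 and 13, was targeted with a CRISPR lentivirus and cells were screened for its loss. The same treatment text stands under both libraries, so whether the WT cells received a virus, and whether the KO cells are 1 clone, is not stated there. The cells grew in a medium with EGF, R-spondin 1 and the inhibitor Y27632.

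Carbonic anhydrases convert carbon dioxide and water into bicarbonate and a proton, and back again. In the gut lining they supply bicarbonate for secretion and protons for exchange against sodium, which couples them to the chloride, bicarbonate and proton carriers of the same cells. Members differ in where they act. Cytosolic forms work on the carbon dioxide of cell metabolism, membrane forms have their active site on the outer face of the cell, and mitochondrial forms feed bicarbonate to biosynthetic enzymes. Car1 and Car4 are commonly used as markers of colon surface cells, and Car9 is a classic target of the hypoxia-inducible factor HIF.

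Levels are given in FPKM, which counts fragments relative to transcript length and to the mapped fragments of a library. Because FPKM is per length, levels can be set beside each other between genes. A difference is given as the log2 ratio, log2((KO FPKM + 1)/(WT FPKM + 1)). The 1 that is added understates the change of low genes. A gene was measured when it reached 1 FPKM in at least 1 library, and was counted as higher or lower at 2-fold or more on that scale. With 1 library per genotype there is no spread between replicates and no test of genotype, so every difference below is one between these 2 libraries.

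The targeted gene Stat6 was at 41.3 FPKM in WT against 44.18 FPKM in KO, which does not check the genotype label, since a small CRISPR deletion need not lower a transcript. The stem cell marker Lgr5 was at 1.79 and 1.88 FPKM. All 5 stem cell markers examined were above 1 FPKM in both libraries and summed to 49.46 FPKM in WT and 44.38 FPKM in KO. Of these 5, 2 had a log2 ratio above 0, Smoc2 (0.19) and Lgr5 (0.05). Axin2 (-0.07), Olfm4 (-0.35) and Ascl2 (-0.71) lay below 0, and the median of the 5 was -0.07. Genes of absorptive enterocytes were far more abundant, with summed levels of 4680.72 FPKM over 12 genes in WT and 16530.29 FPKM in KO. The steps between low FPKM values corresponded to about 19900000 reads in WT and 20400000 reads in KO, and these depths give the approximate read numbers below. Over the 12079 measured genes the median log2 ratio was -0.18, and 30.3% of them lay above 0.

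Of the 10 members 6 were measured and the other 4 were below 1 FPKM in both libraries. Of these 6, the only one at least 2-fold higher in KO was Car4, against a background of 2.44% of all measured genes, and 0 were at least 2-fold lower, against 2.18%. The log2 ratio was above 0 for 5 of the 6, with a median of 0.49. Car2 entered this count only through its level in KO, and over all 10 members, with no minimum level, the median was 0.09. The 10 members summed to 136.64 FPKM in WT and to 223.92 FPKM in KO, a ratio of 1.64. Car9 accounted for 46.4% of that difference, Car4 for 40.6% and Car13 for 12.4%.

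**Figure D1:**
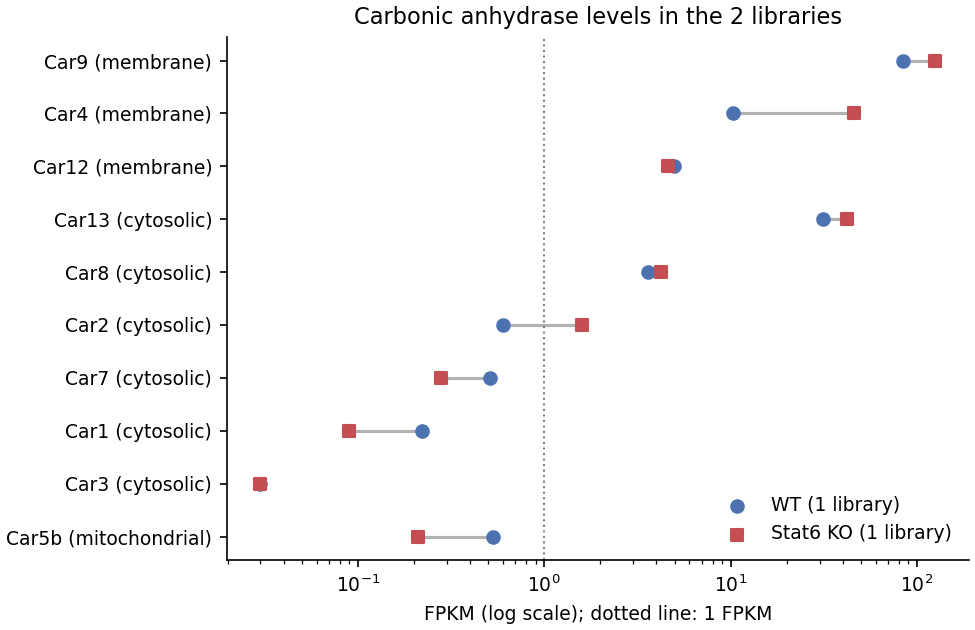
FPKM (log axis) of the 10 carbonic anhydrases, ordered by the place of the enzyme and then by level, with 1 point for the WT library and 1 for the Stat6 KO library. Car9 is the most abundant in both, and Car4 has the widest gap among the members above 1 FPKM, from 10.33 to 45.75 FPKM.

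The membrane forms held most of the family's transcripts. They made up 73.0% of the summed carbonic anhydrase FPKM in WT against 78.3% in KO, and their sum went from 99.78 to 175.32 FPKM. Only Car4 gained share among them (7.56% to 20.4%), while Car9 went from 61.8% to 55.8% and Car12 from 3.65% to 2.05%. All 3 were measured. Their transcripts moved unequally between the libraries, with Car4 far apart, Car9 moderately apart and Car12 close together.

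Car4 encodes an enzyme held on the outer membrane face by a lipid (GPI) anchor and is found on the brush border of the gut. Car4 (Entrez gene 12351) was at 10.33 FPKM in WT against 45.75 FPKM in KO, which is about 251 and 1138 reads. The KO level was 4.43 times that of WT, a log2 ratio of 2.04. The ratio of the estimated reads, corrected for depth, was 4.42 with a 95% counting interval of 3.85 to 5.09 (exact binomial, counting error only). In the ranking of all 12079 measured genes by log2 ratio Car4 stood at place 44 from the top. Among the members it was the third most abundant in WT and the second in KO, where it passed Car13. Its share of the family's FPKM went from 7.56% to 20.4%.

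Car9 encodes a transmembrane enzyme with an extracellular catalytic domain. It was the most abundant member in both libraries, and its level exceeded that of 94.6% of all listed genes in WT and 96.6% in KO. Car9 (Entrez gene 230099) was at 84.46 FPKM in WT against 124.98 FPKM in KO, about 3338 and 5063 reads. The KO level was 1.48 times that of WT, with a log2 ratio of 0.56. At this depth the counting interval of the read ratio was narrow, from 1.42 to 1.55. The difference stayed below 2-fold, and 93.9% of measured genes had a lower log2 ratio.

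Car12, a second transmembrane form with an extracellular active site, differed little. Car12 (Entrez gene 76459) was at 4.99 FPKM in WT against 4.59 FPKM in KO, about 362 and 341 reads. Its log2 ratio was -0.10 as deposited, but 0.10 after scaling with a trimmed mean of log ratios (TMM) and 0.08 with the median of all genes set to 0, so its sign depended on the scaling. The counting interval of its read ratio, 0.790 to 1.07, included 1.

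The promoter windows of these 3 membrane genes are shown because these genes, all of 1 form, include the measured members with the largest and the smallest log2 ratio as deposited and the most abundant member. They run from 250 bases before to 50 bases after a RefSeq start site of build GRCm38.p6, which is later than the mm9 build named for the expression tables. Capitals mark ACGTG, the core that HIF binds, on either strand (CACGT when read from the other strand). The Car4 window is chr11:84957504-84957803, the Car9 window chr4:43506776-43507075 and the Car12 window chr9:66713436-66713735, all on the plus strand.
Car4: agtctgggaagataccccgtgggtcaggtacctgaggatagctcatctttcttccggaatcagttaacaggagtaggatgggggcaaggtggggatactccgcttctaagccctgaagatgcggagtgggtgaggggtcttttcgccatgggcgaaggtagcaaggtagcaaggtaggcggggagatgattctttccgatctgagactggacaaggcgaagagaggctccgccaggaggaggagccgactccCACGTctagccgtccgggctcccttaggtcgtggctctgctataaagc
Car9: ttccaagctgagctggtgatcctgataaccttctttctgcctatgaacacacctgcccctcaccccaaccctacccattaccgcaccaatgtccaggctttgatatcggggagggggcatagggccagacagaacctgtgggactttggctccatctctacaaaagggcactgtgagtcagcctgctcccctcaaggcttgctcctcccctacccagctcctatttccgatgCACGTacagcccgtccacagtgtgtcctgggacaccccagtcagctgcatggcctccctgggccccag
Car12: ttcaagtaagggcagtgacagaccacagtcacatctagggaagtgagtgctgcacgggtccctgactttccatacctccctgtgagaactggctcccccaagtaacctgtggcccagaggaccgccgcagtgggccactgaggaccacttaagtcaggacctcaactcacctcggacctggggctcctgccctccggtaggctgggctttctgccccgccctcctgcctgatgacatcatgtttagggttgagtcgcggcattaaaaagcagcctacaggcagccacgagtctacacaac

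Car9 held the HIF core once, with its first base at position -18 from the start site, and Car4 held it once, at position 3 after the start. Car12 held none. Of 32851 promoter windows of the same length, 19.6% held ACGTG. The other HIF core, GCGTG, was in none of the 3 windows, and in 32.4% of all windows. The motif TTCNNNNGAA, whose spacing STAT6 prefers, and TTCNNNGAA, with the spacing of most other STAT proteins, were in none of the 3 windows and in 6.95% and 8.30% of all windows. Of motifs bound by intestinal factors, TTTATNG (bound by CDX2) was in the Car4 window, at position 42 after the start, and in 10.9% of all windows, while CAAAGTCCA (bound by HNF4A) was in none of the 3 and in 0.475% of all. All motifs were searched on both strands, and a match is a description of letters only. Windows were matched for 5 of the 10 members. Among the other 2, Car7 had 1 match to TTCNNNNGAA in 1 of its 3 windows, with its first base at position 30, and 3 matches to GCGTG over 2 of its windows, and Car5b had GCGTG 5 times in its 1 window.

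Among the cytosolic forms, Car13 carried nearly all of the signal. Car13 encodes a widely expressed cytosolic enzyme that is present in the gut. Car13 (Entrez gene 71934) was at 31.35 FPKM in WT against 42.19 FPKM in KO, about 1411 and 1947 reads. The KO level was 1.35 times that of WT, with a log2 ratio of 0.42 and a counting interval of 1.26 to 1.44. The difference was below 2-fold. The 6 cytosolic genes summed to 36.33 FPKM in WT against 48.39 FPKM in KO, and their share of the family went from 26.6% to 21.6%.

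Car8 encodes a protein of the family that lacks carbonic anhydrase activity and binds the inositol trisphosphate receptor. Car8 (Entrez gene 12319) was at 3.62 FPKM in WT against 4.21 FPKM in KO, about 275 and 328 reads, a log2 ratio of 0.17. Its counting interval, corrected for depth only, was 0.988 to 1.37 and included 1. The log2 ratio of Car8 was 0.37 with TMM scaling and 0.35 with the median of all genes set to 0. Intervals under these scalings were not computed.

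Car2, the fast and widely studied cytosolic enzyme, was low in both libraries. Car2 (Entrez gene 12349) was at 0.60 FPKM in WT against 1.59 FPKM in KO, about 21 and 57 reads. On the deposited scale KO was 2.65 times WT, whereas the log2 ratio with the added 1 was 0.69, so Car2 was not counted as 2-fold higher. With 0.1 added in place of 1 its log2 ratio was 1.27 and it passed. The counting interval of the read ratio, 1.58 to 4.60, lay above 1.

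The remaining cytosolic members rested on few reads. Car7, best known from neurons, was at 0.51 FPKM in WT against 0.28 FPKM in KO, about 16 and 9 reads, and its counting interval of 0.214 to 1.32 included 1. Car1, the abundant red blood cell and colon form, was at 0.22 and 0.09 FPKM, about 5 and 2 reads, with a read ratio of 0.390 and an interval of 0.0372 to 2.38. Car3, the slow form of muscle, liver and fat, was at 0.03 FPKM in both, which is about 1 read each, with a read ratio of 0.975 and an interval of 0.0124 to 76.6. For Car1, Car3 and Car7 a difference between the libraries was not detectable at the estimated depth, and for Car7 this depends on the estimate. The estimated depths are 33.7% (WT) and 34.6% (KO) of the 59000000 reads that the labels give as the average, and which of these reads were mapped is not stated. With that average in both libraries, the intervals of Car7 (0.331 to 0.899) and Car8 (1.06 to 1.28) would exclude 1, and those of Car1, Car3 and Car12 would still include it.

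The mitochondrial form Car5b was also low. Car5b (Entrez gene 56078) was at 0.53 FPKM in WT against 0.21 FPKM in KO, about 36 and 15 reads, and its log2 ratio was -0.34. The read ratio was 0.406, with a counting interval of 0.207 to 0.761 that lay below 1. On the deposited scale KO was 0.396 times WT, which is past 2-fold lower. With the added 1 its log2 ratio was short of 2-fold with or without the minimum level, which Car5b did not reach. It made up 0.388% of the family's FPKM in WT against 0.0938% in KO.

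**Figure D2:**
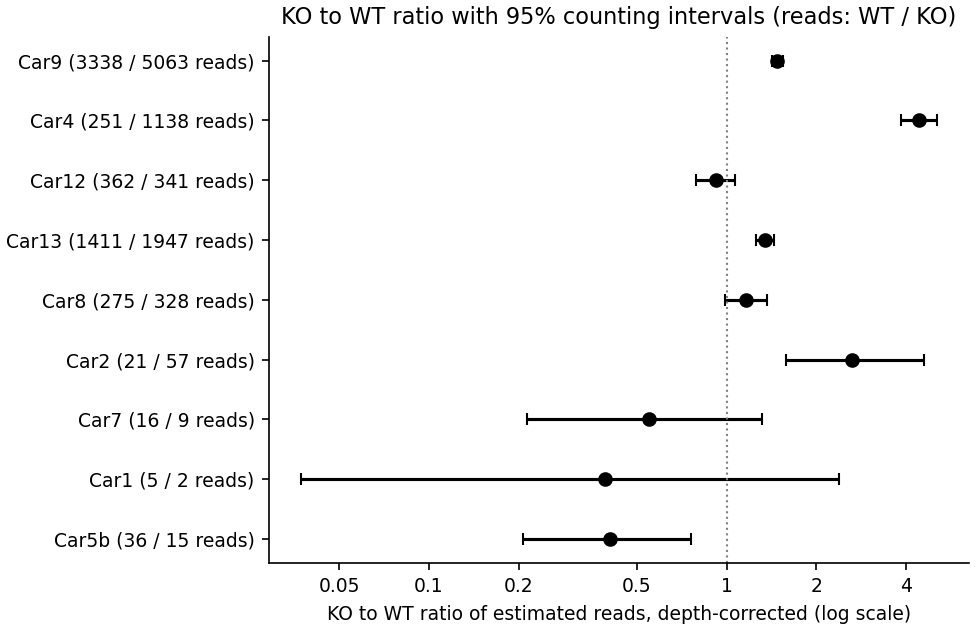
KO to WT ratio (log axis) of the estimated reads of 9 carbonic anhydrases, corrected for depth, with 95% exact binomial intervals that cover counting error only and the estimated WT and KO reads beside each name. The intervals of Car4, Car9, Car13 and Car2 lie above 1 and that of Car5b below 1, and Car3, with about 1 read in each library, is left out.

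The order of levels was nearly the same in the libraries. It ran Car9, Car13, Car4, Car12, Car8 and Car2 from the top in WT, and in KO Car4 and Car13 had changed places. Below 1 FPKM, Car5b stood above Car7 in WT and below it in KO, with at most 36 reads each. Without replicates no spread is known against which neighbours in this order could be compared. The 6 other family genes in the tables were at 0.82 FPKM or less. Car15, a GPI-anchored form, was at 0.74 FPKM in WT against 0.82 FPKM in KO, and the activity-lacking Car11 at 0.25 and 0.21 FPKM. The secreted Car6 was at 0.04 and 0.07 FPKM and the transmembrane Car14 at 0.06 and 0.10 FPKM. The mitochondrial Car5a and the activity-lacking Car10 were at 0.06 and 0.02 FPKM in WT, and both were listed at 0 in KO.

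**Figure D3:**
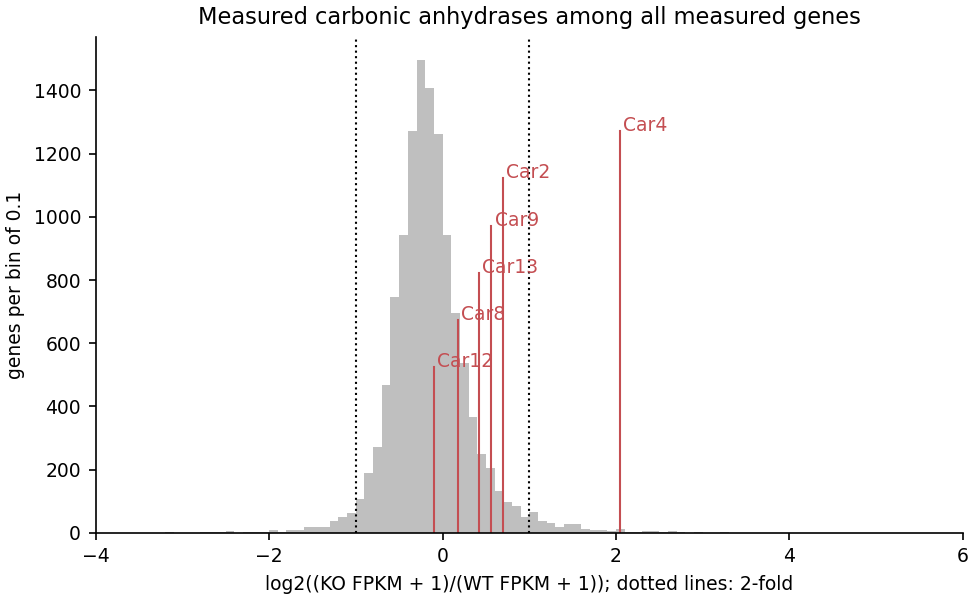
Number of genes per bin of 0.1 in log2 ratio for the 12079 measured genes (grey), with the 6 measured carbonic anhydrases as red lines whose heights carry no value, and dotted lines at 2-fold. Car4, at 2.04, is the only one beyond the dotted lines, and the other 5 lie between -0.10 and 0.69.

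Transcripts of enterocytes, the villus cells that carry Car4 on their brush border, were higher in the same library as Car4. Of 12 such genes, KO was 2-fold or more higher for 11, against 2.44% of all measured genes, and lower for 0, against 2.18%. Their median log2 ratio was 2.06, beside -0.18 for all measured genes. The lactase gene Lct (2.98) and the apolipoprotein gene Apoa1 (2.71) had the highest log2 ratios. Lct, at 0.53 FPKM in WT against 11.03 FPKM in KO, was measured only through its level in KO. The microvillus gene Vil1 (0.57) and the aminopeptidase gene Anpep (1.29) had the lowest. Of these 12 genes 6 had a higher log2 ratio than Car4. In such bulk cultures more cells of a type and more RNA per cell cannot be told apart, and the part of these cells in the level of Car4 was not tested. Of 11 measured genes of colon surface cells, 2 were 2-fold or more higher in KO, against 2.44% of all measured genes, and 0 lower, against 2.18%. The median of these 11 was 0.26. The highest was Tmigd1, an adhesion protein gene (7.22 FPKM in WT against 32.56 FPKM in KO, log2 ratio 2.03). Next was the chloride and bicarbonate exchanger gene Slc26a3 (1.09). The lowest were the serum amyloid gene Saa1 (-0.96) and Ceacam20 (-0.10). Of these colon genes, Slc37a2 (0.37 and 1.29 FPKM) was measured only through its level in KO, and Saa1 (2.02 and 0.55 FPKM) only through WT.

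The genes nearest to Car4 in their 2 levels on the log2 scale were Slc27a2, Sult1d1 and Ugt1a1. Slc27a2, a fatty acid transport gene, was at 9.90 FPKM in WT against 42.94 FPKM in KO. The sulfotransferase gene Sult1d1 was at 11.73 and 49.41 FPKM, and the glucuronosyltransferase gene Ugt1a1, whose reads can be shared with its relatives, at 11.76 and 50.39 FPKM. This likeness rests on 2 libraries.

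Carriers that exchange bicarbonate, chloride and protons with the help of these enzymes lay on both sides of 0. Of 17 measured carriers and partners, KO was 2-fold or more higher for 2, against 2.44% of all measured genes, and lower for 1, against 2.18%. The median log2 ratio was 0.04, beside -0.18 for all measured genes. The higher ones were the exchangers of chloride for bicarbonate Slc26a6 (13.81 and 39.05 FPKM, log2 ratio 1.44) and Slc26a3 (17.71 and 38.88 FPKM, 1.09), the latter also on the colon list. The lower one was the sodium and proton exchanger Slc9a4 (6.52 and 1.67 FPKM, -1.49), followed by Slc4a11, which passes protons, at 6.18 and 2.68 FPKM (-0.96). Slc4a5 (0.58 and 1.18 FPKM) was measured only through its level in KO.

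Hypoxia-inducible genes, the class to which Car9 belongs, mostly had log2 ratios above 0 and short of 2-fold. Of 20 measured genes 0 passed 2-fold in either direction, where 2.44% of all measured genes were higher and 2.18% lower. Of these 20, 19 had a log2 ratio above 0, against 30.3% of all measured genes. Their median was 0.37, beside -0.18 for all measured genes. Adm, the gene of the vessel-widening peptide adrenomedullin (0.94), and Plod2, a lysyl hydroxylase gene (0.81), were highest, and the glucose transporter gene Slc2a1 (0.05) and Ddit4 (-0.20) lowest. Car9, at 0.56, lay within their range, with 5 of the 20 above it.

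**Figure D4:**
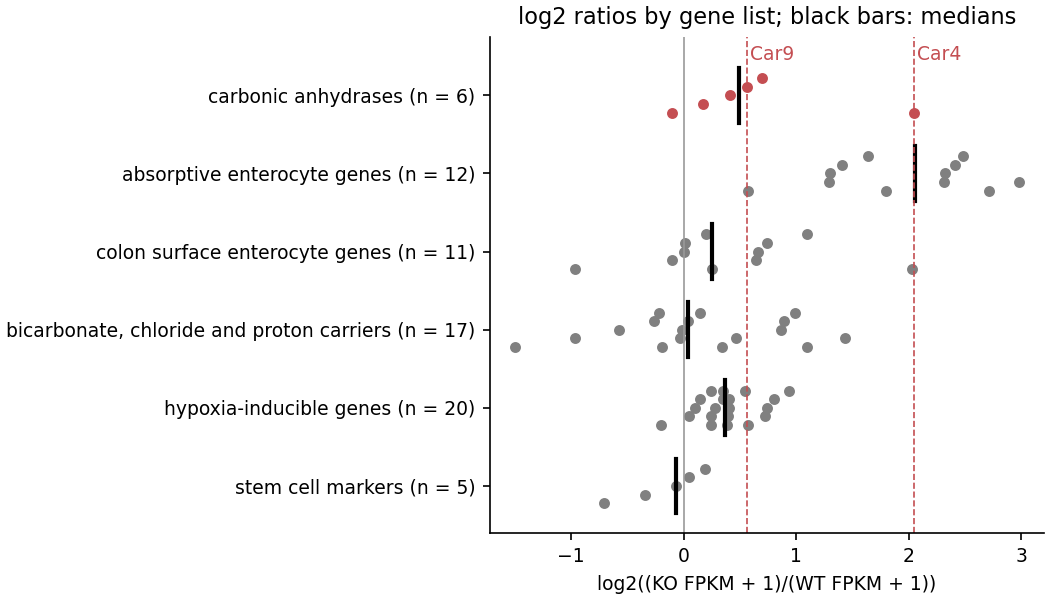
The log2 ratio of each measured gene (points, spread vertically for legibility) in the carbonic anhydrase family (red) and 5 other gene lists (grey), with black bars at the list medians and dashed lines at the values of Car4 and Car9. Car4 lies near the enterocyte median of 2.06, and Car9 lies inside the range of the hypoxia-inducible genes.

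Markers of other cell types that use a member were read in the same libraries. For red blood cells, which hold Car1 and Car2, 5 of 8 listed markers could be read and summed to 1.20 FPKM in WT against 1.53 FPKM in KO, with Hba-a2 at 0 in both and the whole sum from Hba-a1 (0.85 and 1.21 FPKM), Ermap and Alas2. Hba-a1 was measured only through its level in KO. For fat and skeletal muscle, which hold Car3, 7 of 10 summed to 103.38 and 128.84 FPKM, nearly all of it from the actin gene Acta1 (99.31 and 122.78 FPKM), whose sequence is close to that of other actins. Next were Fabp4 (3.79 and 5.83 FPKM), Cfd and Ckm, and Plin1 and Mb were at 0 in both. For gastric epithelium 5 of 8 summed to 0.91 and 0.69 FPKM, from Tff1, Atp4a, Gif and Muc5ac, with Tff2 at 0 in both.

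For osteoclasts and macrophages, which use Car2, 8 of 9 listed markers summed to 45.29 and 28.43 FPKM, with members on both sides. The macrophage genes Cd68 (17.74 and 6.08 FPKM), the only one of 7 measured past 2-fold, Lyz2 (12.60 and 6.32 FPKM) and Csf1r (2.07 and 0.96 FPKM) were lower in KO. Ptprc (1.43 and 0.57 FPKM) and Adgre1 (1.16 and 0.86 FPKM) were also lower in KO. Higher there were the osteoclast gene Acp5 (8.93 and 11.70 FPKM), Itgam (1.26 and 1.72 FPKM) and, near 0, Ctsk (0.10 and 0.22 FPKM). Csf1r, Ptprc and Adgre1 were measured only through their levels in WT. The median log2 ratio of the 7 measured was -0.63, beside -0.18 for all measured genes, of which 2.18% were 2-fold or more lower. For neurons, which hold Car7 and Car8, 8 of 8 summed to 12.04 and 9.82 FPKM. Snap25 (6.71 and 4.16 FPKM), Map2 (1.40 and 0.89 FPKM) and Nefl (1.14 and 0.90 FPKM) were lower in KO, and Tubb3 (2.16 and 3.30 FPKM) was higher. Map2 and Nefl were measured only through their levels in WT. The part of such cells in the members' levels was not tested.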

How the data were processed

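Per the labels' protocols, a BGISEQ-500 gave single-end reads of 50 bases, on average 59000000 in each sample. The authors deposited FPKM per gene with 2 decimals. HISAT, Bowtie2, RSEM and mm9 are named in the submitters' processing notes. Tool versions and the annotation were not given in the sources used here. Tables were joined on Entrez gene number. FPKM depends on the library total, so a few abundant genes can shift all values.

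Depth was estimated as the read total, between 8000000 and 62000000, that brought the most low values of genes with 1 transcript within 0.1 read of a whole number (63.2% of 190 values in WT and 72.2% of 151 in KO, where 20% would follow from even spread). Lengths came from GENCODE transcripts (the mean where a gene has several), less 37 bases, an offset taken from an earlier estimate on these data. The depths were chosen to make these shares high. Reads of a member are FPKM times length times depth, and their intervals are exact binomial at 95%.

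The members and lists were chosen with earlier results of these data known. The genes named from each list are the 2 highest and 2 lowest log2 ratios, for markers of other cell types up to 4 members above 0. For stem cell markers all 5 are named. Which 4 (the most abundant), the further macrophage and osteoclast genes Itgam, Ctsk, Ptprc and Adgre1, the stem cell marker Axin2, and members at 0 were chosen after their values were seen. Also named are the 3 genes nearest to Car4, leaving out predicted models. The ratio and its calls were tested on simulated data with counting error only, so variation between cultures was not part of that test. The 10 alternative settings changed the added value, scaling, minimum level or threshold. Promoter windows came from a RefSeq table of GRCm38.p6. Proteins were not used here. Calculations used Python 3.11.15, pandas 2.3.3 and scipy 1.17.1.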

Additional observations from a re-analysis of the deposited data

How the results depend on the processing

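No paired analysis was possible because each genotype had 1 library. The number of carbonic anhydrases at least 2-fold higher in KO was 1 in 8 of 10 alternative settings. With 0.1 added in place of 1 it was 2, Car4 and Car2, and with a 1.5-fold threshold it was also 2, again Car4 and Car2. The number at least 2-fold lower was 0 in all 10. Car5b, at 0.396 times WT on the deposited scale, entered only the setting with no minimum level, where 1 was added. The log2 ratio of Car4 ranged from 1.73 to 2.28, of Car9 from 0.54 to 0.80, of Car13 from 0.38 to 0.65, of Car8 from 0.10 to 0.37 and of Car2 from 0.23 to 1.27. The median of the measured members ranged from 0.09 with no minimum level to 0.72 with the TMM factor. Scaling moved the median of all genes from -0.18 to 0.03 (TMM), and the split of called genes from 295 higher and 263 lower (52.9% higher) to 446 and 170 (72.4%), or to 409 and 160 (71.9%) with that median set to 0. With 0.1 added there were 374 higher and 604 lower (38.2%), and with 5 added 144 and 63 (69.6%). With a 1.5-fold threshold there were 689 and 1381, and with a 4-fold one 51 and 27. With a minimum of 1 FPKM in both libraries there were 237 and 165, and with a minimum of 5 FPKM in at least 1 library 224 and 150. With the labels' average depth, added after seeing the data, the counting intervals of Car7 and Car8 excluded 1, and those of the other 8 members kept their side of 1. Car1, Car3 and Car7 had the fewest reads at either depth, and variation between cultures was not measured.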

Other observations

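A row of 4 members, Car13, Car1, Car3 and Car2, lies in this order on chromosome 3 with no other protein-coding gene between them in RefSeq GRCm38.p6. This set was looked at after the values were seen. Although adjacent, they covered nearly the whole range of levels in the family. Car13, at one end of the row, was at 31.35 FPKM in WT against 42.19 FPKM in KO, while Car1 and Car3 in the middle were at 0.22 FPKM or less in both. Car2, at the other end, was at 0.60 and 1.59 FPKM. The next genes outward from Car13 were Rbis, a ribosome biogenesis factor gene that the tables list under an older symbol, at 59.92 and 41.79 FPKM (log2 ratio -0.51), and the cell cycle transcription factor gene E2f5, at 11.06 and 11.75 FPKM (0.08). Within the row Car13 and Car2 were thus higher in KO, Car1 was lower on few reads (0.22 and 0.09 FPKM) and Car3 was equal. Outside it, on the Car13 side, Rbis was lower and E2f5 slightly higher. On the Car2 side the next genes, Gm9733 and Sirpb1a, had no values here.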
